A study of Mus musculus with 8 samples.

Results

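The immunity-related GTPases (IRG proteins) described here are the 6 mouse genes Igtp, Irgm1, Irgm2, Iigp1, Tgtp1 and Tgtp2. They were taken by symbol from the count table and not by their values, but with earlier results of these data known. They are 6 of the table's 53647 usable gene names and 6 of the 13412 genes that had enough counts to be tested. The table holds polyA RNA counts of sorted C57BL/6 leukemia macrophages in 2 groups of 4 libraries. Mac libraries came from leukemia macrophages kept alone for 12 h. E-Mac libraries came from leukemia macrophages that spent the 12 h beside mesenchymal stromal cells (MSC), the fibroblast-like support cells of bone marrow. By the labels the cells of both groups were sorted after culture, and both share the strain, the leukemic source and the culture time. The comparison asks how the sorted cells' transcripts differ after co-culture. The sources used here do not give the leukemia model, where the MSC came from or the surface markers of the sort. Nor do the labels say that the 4 libraries of a group came from separate cultures or animals, so the p-values cover the spread among these libraries alone, and that spread may be technical.

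IRG proteins are large GTPases that mouse cells make in response to interferons, above all interferon gamma, and that act on membranes around intracellular bacteria and parasites such as Toxoplasma. Irgm1, Irgm2 and Igtp (also called Irgm3) are the GMS group, named for a methionine in the first GTP-binding motif. They sit on the cell's own membranes and keep the other members inactive there. Iigp1 (Irga6), Tgtp1 and Tgtp2 (both Irgb6) are the GKS group, the effectors that bind GTP, assemble on a pathogen's vacuole and disrupt it. In macrophages Irgm1 is also known for its part in autophagy and in the survival of activated cells.

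Values are in CPM, counts per 1000000 counts of a library after TMM scaling, and fold changes are E-Mac over Mac. A gene was called when the edgeR quasi-likelihood test gave a Benjamini-Hochberg adjusted p under 0.05 over all genes tested. The Mac libraries held 11646025 to 15556935 counts each, and the E-Mac libraries 13377046 to 15740846. All 16 macrophage core markers were detected, and their sum was 14880 to 16070 CPM in Mac and 11590 to 15090 CPM in E-Mac. The sum of 16 granulocyte markers was 33270 to 36970 CPM in Mac and 11070 to 18070 CPM in E-Mac, so granulocyte transcripts were plentiful in cells labelled as macrophages, most of all in Mac. Stromal markers summed to 23.5 to 25.7 CPM in Mac, to 88.8 and 70.4 CPM in E-Mac 1 and 3 and to 445 and 495 CPM in E-Mac 2 and 4. E-Mac 2 and 4 scored 20.6 and 28.9 on principal component 2, far from the -26.2 and -22.0 of E-Mac 1 and 3. In sorted bulk RNA, fewer cells of a type and less RNA per cell cannot be told apart.

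All 6 IRG genes were higher in E-Mac, by 3.13-fold (Irgm2) to 7.23-fold (Iigp1), and in each of them the lowest E-Mac library lay above the highest Mac library. Of all genes tested, 58.3% were called in either direction and 29.5% were called higher, 9.57% by 2-fold or more and 5.14% by 3-fold or more. In 26.7% of them every E-Mac library lay above every Mac library. Together the 6 genes took 232.7 to 245 CPM in the Mac libraries and 917 to 1009 CPM in the E-Mac libraries. The median of their 6 log2 fold changes was 2.38, against -0.003 over all genes tested. From the highest Mac to the lowest E-Mac library the step was 2.71-fold to 5.55-fold.

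The stretches shown first are from the reference promoters of the 5 IRG genes on chromosome 11, because 2 interferon-related letter patterns recur in them. The sequences are RefSeq's, on GRCm38.p6, from windows of 250 bases before to 50 bases after each start site. The table used held no window for Iigp1. One pattern is the core of an interferon-stimulated response element (ISRE), GAAA repeated after any 2 bases. The other is the core of a gamma-activated site (GAS), TTCNNNGAA. Both were searched on both strands, and their matches are in capitals.
Igtp, chr11:58199492-58199561, plus strand: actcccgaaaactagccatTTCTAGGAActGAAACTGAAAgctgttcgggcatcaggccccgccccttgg
Irgm2, chr11:58214883-58214952, plus strand: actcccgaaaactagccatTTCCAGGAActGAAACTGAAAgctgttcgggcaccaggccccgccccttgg
Tgtp1, chr11:48992284-48992353, minus strand: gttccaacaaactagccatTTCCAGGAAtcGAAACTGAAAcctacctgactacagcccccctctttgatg
Tgtp2, chr11:49064243-49064312, minus strand: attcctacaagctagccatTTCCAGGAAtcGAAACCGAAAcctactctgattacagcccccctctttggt
Irgm1, chr11:48871428-48871457, minus strand: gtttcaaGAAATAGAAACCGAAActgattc

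An ISRE match stood in all 5 windows, and in 3.443% of the 32851 promoter windows of the whole table. A GAS match stood in 4 of the 5 and in 8.298% of all windows, and both stood in 4 of the 5 and in 0.454% of all. In Igtp, Irgm2, Tgtp1 and Tgtp2 the GAS match came first and the ISRE match followed after 2 bases on the same strand. This order and spacing, noticed in these sequences and then counted, was found in 5 of the 32851 windows (0.0152%). The fifth was that of Gm12185, another IRG family gene, which was itself called higher in E-Mac, as were 29.5% of all genes tested. Of 6 windows of other listed family genes 3 held an ISRE match and 2 a GAS match. Gm12250 held both and was called higher. Gm5431, and Ifi47 from outside the list, were called higher with neither match, whereas 9930111J21Rik1 held an ISRE match and did not pass. Irgq and 9930111J21Rik2 held neither and did not pass. The GAS match began 45 bases before the start site in Igtp, at position -75 in Irgm2, -88 in Tgtp1, -81 in Tgtp2 and -86 in Gm12185. The Irgm1 window had no GAS match. It held ISRE matches at -30 and -24 that overlap in 4 bases, and they make the 16 capitals of its line.

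The Igtp and Irgm2 stretches were the same at 68 of 70 bases (97.1%). They differed by T23C, inside the GAS match, and T53C, written as the Igtp base, the position from the 5′ end of the stretch, and the Irgm2 base. The Tgtp1 and Tgtp2 stretches shared 49 of 70 bases, and inside the capitals they differed by T36C alone, the Tgtp1 base first. Both pairs were compared position by position with no gaps. Most Tgtp differences lie from C46T on, where the Tgtp2 line has an extra base that shifts what follows. The 49 of 70 therefore understates how alike the Tgtp stretches are and cannot be set beside the 68 of 70. By the GENCODE M21 gene models the Igtp stretch ends 6 bases into the first exon. The Irgm2 and Tgtp1 stretches lie in introns of longer transcripts of those genes, the Tgtp2 stretch lies upstream of its gene, and the Irgm1 stretch lies in an annotated exon of a longer Irgm1 transcript. A letter match is a description of these windows and not evidence of binding.

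Irgm1, the regulator whose loss is best known for weakening control of bacteria, lies at chr11:48861968-48871683 on the minus strand. Its level was 111, 108, 114 and 109 CPM in Mac 1 to 4 and 394, 434, 405.5 and 393 CPM in E-Mac 1 to 4. The libraries of each group were close to each other and far from the other group, with a coefficient of variation of 2.59% in Mac and 4.68% in E-Mac. Irgm1 rose 3.68-fold (log2 fold change 1.88 ± 0.06 SE, n = 4 and 4, edgeR adjusted p = 8.14e-11).

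Irgm2, a second GMS regulator, which is known to restrain the noncanonical inflammasome, stood at 66.3, 59.2, 62.7 and 68.3 CPM in Mac 1 to 4. In E-Mac 1 to 4 it stood at 186, 218, 185 and 214 CPM. E-Mac 2 and 4 lay above E-Mac 1 and 3, by 1.16-fold on average, and all 4 lay above every Mac library. Irgm2 rose 3.13-fold, the least of the 6 (1.64 ± 0.08, edgeR adjusted p = 1.59e-09). Without E-Mac 2 and 4 its log2 fold change was 1.54.

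Igtp, the third GMS member and a resident of the endoplasmic reticulum and lipid droplets, was at 50.2, 45.1, 49.5 and 46.1 CPM in Mac 1 to 4. It was at 200.5, 237, 217 and 218 CPM in E-Mac 1 to 4, so that even the lowest E-Mac library was 3.99 times the highest Mac library. Its rise was 4.57-fold (2.19 ± 0.07, edgeR adjusted p = 6.36e-11), more than that of both other GMS genes. The ratio of Igtp to Irgm2 counts was 0.674 to 0.789 in the Mac libraries and 1.02 to 1.17 in the E-Mac libraries. The ratio of Igtp to Irgm1 counts likewise did not overlap, with 0.418 to 0.454 in the Mac libraries and 0.509 to 0.554 in the E-Mac libraries. The annotated spans of Igtp and Irgm2 overlap on the plus strand, at chr11:58199556-58207591 and chr11:58199618-58222782, so that nearly all of Igtp lies within that of Irgm2. Their models share 162 exon bases, 8.01% of the exon length of Igtp and 4.39% of that of Irgm2.

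Iigp1, a gene of chromosome 18 and the effector whose coating of the Toxoplasma vacuole is the best studied, changed the most. Mac 1 to 4 had 6.27, 8.91, 7.37 and 7.58 CPM, and E-Mac 1 to 4 had 63.2, 52.1, 58.7 and 43.0 CPM. The groups were far apart, and within E-Mac the libraries 2 and 4 were the lower ones, at 0.780 times the mean of 1 and 3. Iigp1 rose 7.23-fold (2.85 ± 0.14, edgeR adjusted p = 1.89e-09), and its log2 fold change was 3.03 without E-Mac 2 and 4. By log2 fold change it ranked 266 of the 13412 genes tested, and Irgm2, the lowest of the 6, ranked 645. The ratio of Iigp1 to Irgm1 counts, an effector to a regulator, lay between 0.0567 and 0.0825 in Mac and between 0.109 and 0.161 in E-Mac.

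Tgtp2, a gene of Irgb6, an effector that reaches the vacuole early, lies at chr11:49057194-49064206 on the minus strand. It had 10.1, 10.8, 10.01 and 10.1 CPM in Mac 1 to 4 and 68.6, 62.5, 64.2 and 60.1 CPM in E-Mac 1 to 4. These were narrow ranges in both groups, and the rise was 6.24-fold (2.64 ± 0.08, edgeR adjusted p = 4.22e-11). Tgtp1, its near copy at chr11:48985327-48994172 on the minus strand, had far fewer reads, with 15, 8, 19 and 17 counts in Mac 1 to 4 and 73, 75, 63 and 113 counts in the E-Mac libraries. That is 0.932, 0.666, 1.17 and 1.05 CPM in Mac against 5.69, 5.16, 4.24 and 8.12 CPM in E-Mac, and E-Mac 4 was the highest. Its rise was 5.96-fold (2.57 ± 0.27, edgeR adjusted p = 3e-06), with the widest error of the 6 genes.

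The values of the 2 Tgtp genes cannot be taken as fully separate. Of the 50-base words in Tgtp1 transcripts 79.4% also occur in Tgtp2, and of those in Tgtp2 85.8% occur in Tgtp1, and the sources used here do not give how reads with several matches were counted. Tgtp1 also shares 223 exon bases (6.96%) with Gm12185 on the same strand. With the counts of both genes added into 1 row the log2 fold change was 2.64. The ratio of Tgtp1 to Tgtp2 counts overlapped between the groups, lying between 0.0615 and 0.117 in Mac and between 0.0661 and 0.135 in E-Mac. For Igtp and Irgm2 the share of 50-base words found in any other gene was 11.8% and 7.83%, for Iigp1 1.69% and for Irgm1 0.38%.

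**Figure D1:**
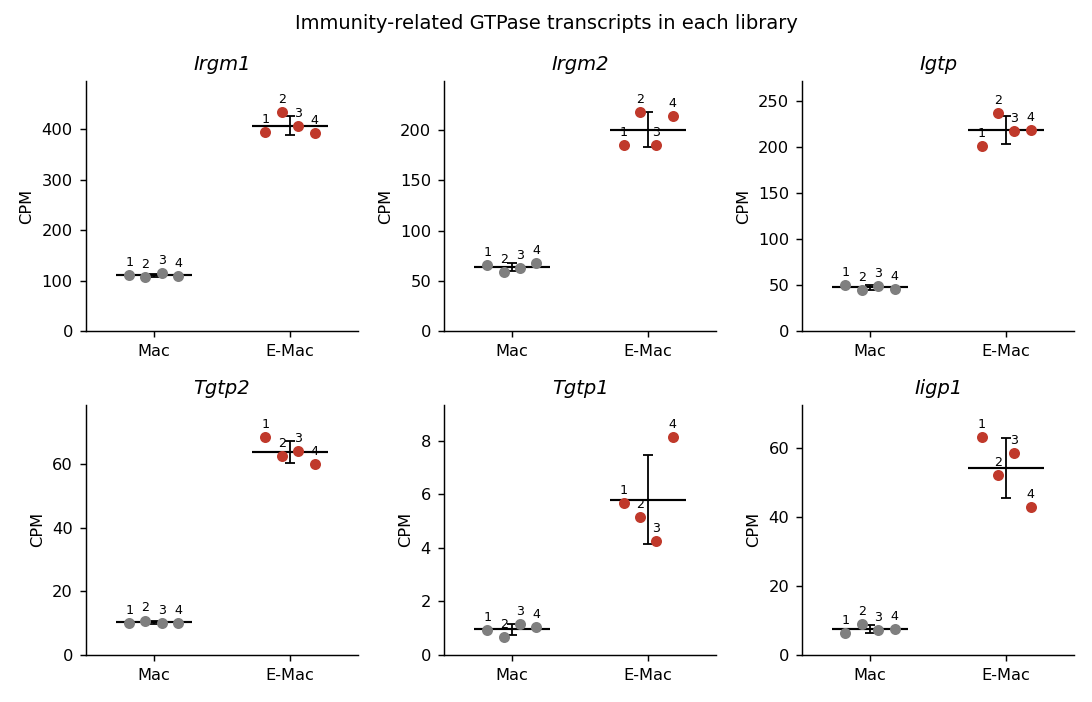
CPM of the 6 IRG genes (y axes start at 0) in the 4 Mac libraries (grey) and the 4 E-Mac libraries (red), with the replicate number over each point, the mean as a horizontal line and the SD as the error bar. In every panel the E-Mac points lie above the Mac points. In the Iigp1 panel E-Mac 2 and 4, at 52.1 and 43.0 CPM, lie below 1 and 3, and in the Irgm2 panel they lie above them, at 218 and 214 CPM.

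Levels of different genes were set side by side only per length, as CPM per kilobase of all annotated exons. On this scale Igtp was first in Mac at 23.6 ± 1.23 (SD, n = 4), followed by Irgm1 at 19.0 ± 0.492, Irgm2 at 17.4 ± 1.09, Tgtp2 at 3.48 ± 0.133, Iigp1 at 1.29 ± 0.186 and Tgtp1 at 0.297 ± 0.0669. The order in E-Mac was the same, with Igtp at 107.9 ± 7.39, Irgm1 at 69.97 ± 3.28, Irgm2 at 54.4 ± 4.78, Tgtp2 at 21.7 ± 1.22, Iigp1 at 9.32 ± 1.51 and Tgtp1 at 1.81 ± 0.517 CPM per kilobase. No 2 neighbours in either order overlapped over the 4 libraries. The top of the order depends on the length taken: per kilobase of the longest transcript Irgm1 came first in Mac at 28.8, and in E-Mac its 106.1 overlapped with Igtp.

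Within the 6 genes alone, the 3 GKS effectors held a larger share in every E-Mac library than in any Mac library, but this depends on which effector genes are counted. Of the summed CPM per kilobase of the 6 the GKS effectors took 7.20 to 8.69% in the Mac libraries and 11.3 to 14.2% in the E-Mac libraries, ranges that do not overlap. The GMS regulators took 91.3 to 92.8% and 85.8 to 88.7%. The share of Irgm2 went from 26.7 ± 1.32% in Mac to 20.5 ± 1.19% in E-Mac, that of Irgm1 from 29.2 ± 0.647% to 26.4 ± 0.521%, and that of Igtp from 36.3 ± 1.05% to 40.7 ± 1.04%. Iigp1 held 1.997 ± 0.346% and 3.53 ± 0.672%, and Tgtp2 held 5.37 ± 0.365% and 8.22 ± 0.758%. These shares add up to 100%, so they depend on each other, and they were not tested. The family has other GKS effectors, and with Ifi47 (Irgd, at 35.3 ± 1.28 CPM per kilobase in Mac and 132 ± 8.63 in E-Mac) added the effector share was 38.4 to 41.9% in the Mac libraries and 39.7 to 43.8% in the E-Mac libraries, which overlap. With Ifi47 and Gm12250 (Irgb10, at 17.3 ± 1.37 and 79.5 ± 3.42 CPM per kilobase) both added it was 47.5 to 49.9% and 49.4 to 53.4%, which also overlap.

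**Figure D2:**
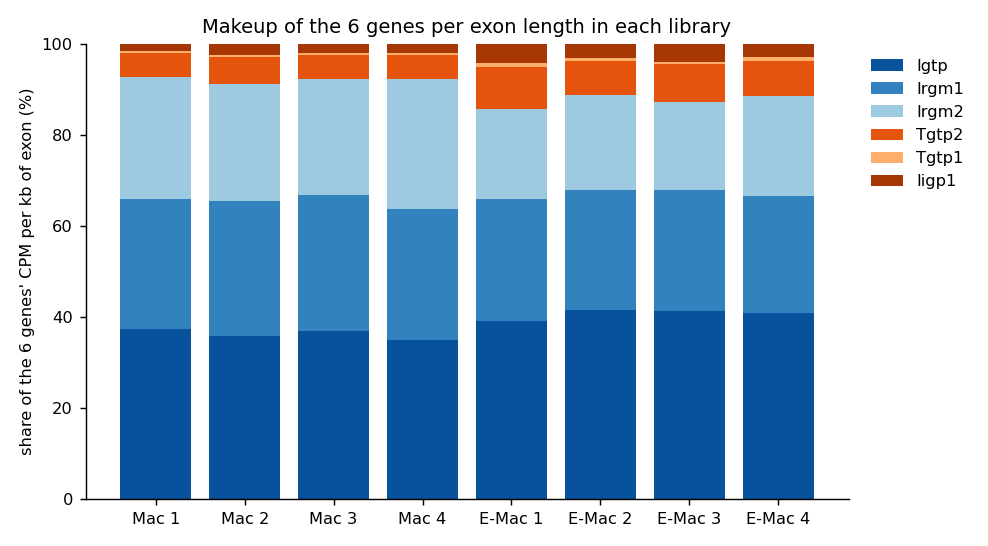
Share (%) of each of the 6 genes in their summed CPM per kilobase of exon, in each library, with GMS regulators in blue and GKS effectors in orange and brown. The orange and brown part is 7.20 to 8.69% of the bar in Mac and 11.3 to 14.2% in E-Mac, and Irgm2 (light blue) is narrower in every E-Mac library than in any Mac library.

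Other family genes did not all follow the 6. Of 17 symbols listed, 11 were in the table and 9 were tested, and of these 4 rose, 1 fell and 4 did not pass, with a median log2 fold change of 0.78. The 17 symbols include alternative names of genes already listed, such as Irgb10 for Gm12250, so they are not as many separate genes. Over all genes tested 29.5% were higher and 28.8% lower. Gm12250, the gene of Irgb10, which helps to expose bacterial ligands to inflammasomes, is annotated as a processed pseudogene in GENCODE M21 and stood at 22.2, 19.5, 23.5 and 22.8 CPM in Mac 1 to 4. It rose to 100.7, 101.4, 106.7 and 96.0 CPM in E-Mac 1 to 4, with no overlap (2.20 ± 0.08, edgeR adjusted p = 9.82e-11). Gm4951, on chromosome 18 like Iigp1 but more than 100 kb from it, rose from 2.71 ± 0.499 to 14.7 ± 3.60 CPM (2.44 ± 0.20). Its E-Mac libraries 2 and 4 were lower than 1 and 3, at 0.727 times their mean, as in Iigp1.

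Gm5431 and Gm12185, which lie on the stretch from Irgm1 to Tgtp1, rose as well (1.08 ± 0.10 and 1.09 ± 0.25). Their neighbours 9930111J21Rik1 and 9930111J21Rik2 had log2 fold changes of 0.21 ± 0.17 and 0.05 ± 0.07 and did not pass the test, though without E-Mac 3 9930111J21Rik1 passed at 0.39. Of their 50-base words 83.2% and 59.8% occur in another gene. The family members on chromosome 7 that are not known as interferon targets did not rise: Irgq had 0.04 ± 0.10, and the testis gene Irgc1 fell (-1.73 ± 0.53, edgeR adjusted p = 0.0131) at 84 counts over all Mac and 23 over all E-Mac libraries, with libraries that overlapped. Irgc1 shares 220 exon bases with a gene on the opposite strand. F830016B08Rik did not pass at 0.78 ± 0.45. Gm4841 and Gm12187, with 29 and 27 counts over the 8 libraries, were not tested.

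Ifi47, the gene of the GKS protein Irgd, was not in the list and was added after its values were seen, because it lies 12381 bases from Tgtp2. It had 83.3 to 90.9 CPM in Mac and 307 to 356 CPM in E-Mac, a rise of 1.91 ± 0.07 on the log2 scale (edgeR adjusted p = 1.26e-10).

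**Figure D3:**
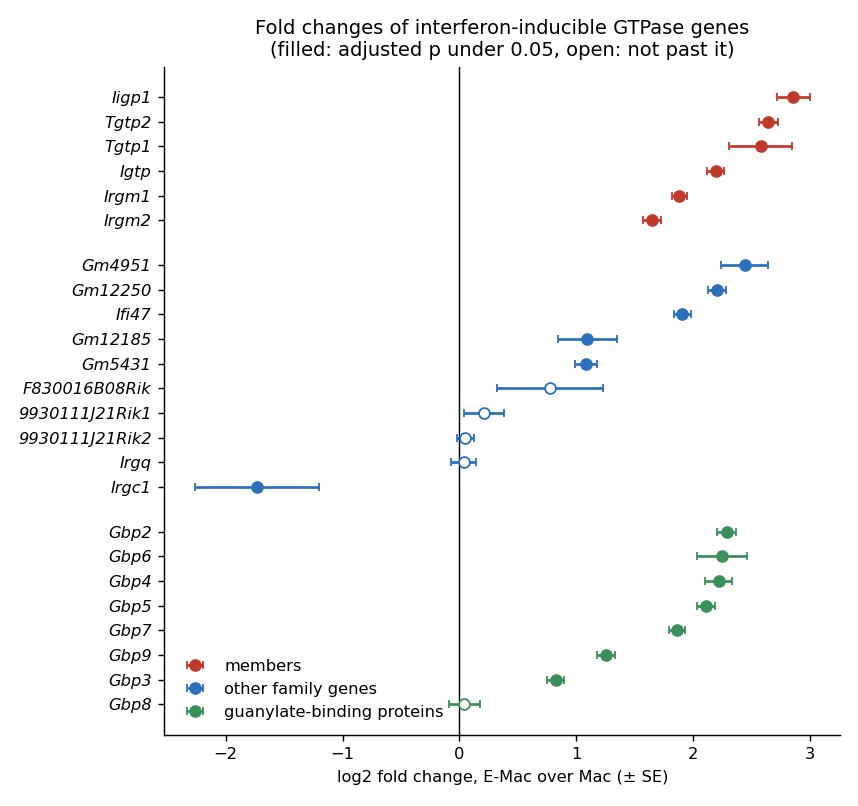
Log2 fold change, E-Mac over Mac, with its SE as the error bar (n = 4 and 4) for the 6 genes (red), other IRG family genes (blue) and guanylate-binding proteins (green). Filled points passed an adjusted p of 0.05. The 6 genes lie between 1.64 and 2.85, whereas the other family genes spread from -1.73 to 2.44.

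The 6 genes occupy 3 places in the genome: Irgm1, Tgtp1 and Tgtp2 in 1 part of chromosome 11, Igtp and Irgm2 in another, and Iigp1 on chromosome 18. Within 100 kb of a member lay 13 tested genes outside the family. Of these 3 were called higher, 4 lower and 6 neither way, and the background over all genes was 29.5% higher and 28.8% lower. The higher ones were Psme2b, a copy of a proteasome activator subunit gene (1.12 ± 0.07), Smim3 (0.80 ± 0.08) and Olfr56 (3.75 ± 0.14). The annotated span of Olfr56, an odorant receptor gene, runs across Tgtp1, Tgtp2 and Ifi47, and it shares 111 exon bases with Ifi47 on the same strand. Among the lower ones were 4930438A08Rik (-2.25 ± 0.15) and Zfp692 (-0.89 ± 0.11), both beyond Irgm2. Of the 7 tested other family genes in these windows, 4 were higher and 3 did not pass.

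**Figure D4:**
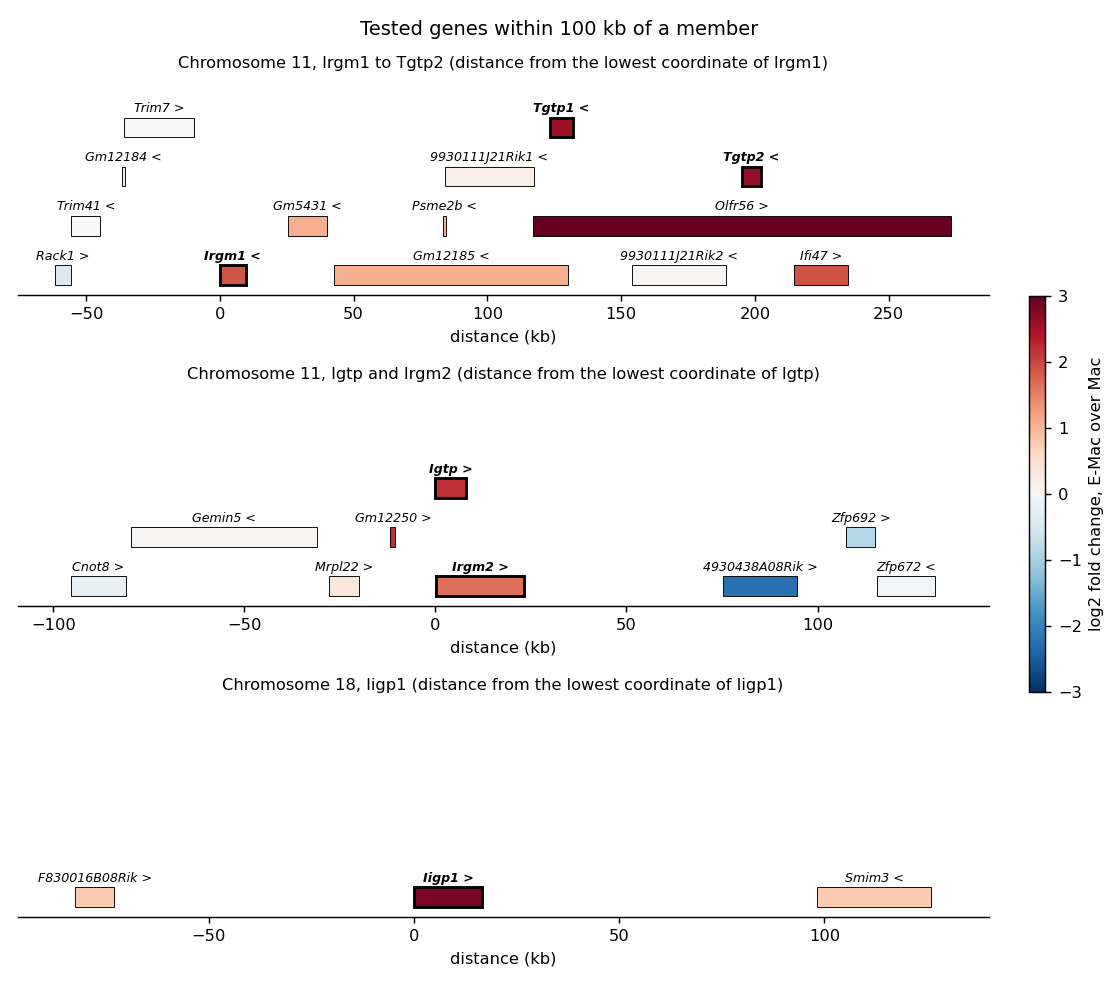
Tested genes within 100 kb of an IRG gene, drawn to scale in 3 panels by distance (kb) from the lowest coordinate of the first IRG gene, with the log2 fold change as colour (red higher, blue lower in E-Mac) and the strand as an arrowhead. The 6 IRG genes, outlined in bold, are all red. Their neighbours include pale genes such as Trim41 and Gemin5 and the blue 4930438A08Rik (-2.25).

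Guanylate-binding proteins (GBPs), larger interferon-inducible GTPases that join IRG proteins on vacuoles, rose in 7 of 8 tested genes (29.5% of all genes tested were higher), with a median log2 fold change of 1.98. Gbp2 went from 78.0 ± 3.68 to 379.9 ± 32.3 CPM (2.28 ± 0.08), Gbp5 had 2.11 ± 0.08 and Gbp7 had 1.86 ± 0.07. Gbp8 did not pass, at 0.04 ± 0.13, and 3 of the 11 genes listed were not tested. Of the GBP windows among the promoters 5 of 6 held an ISRE match and 2 held a GAS match. Of the Mx and very large inducible GTPases, other GTPases that interferons induce, 4 of 5 rose (median 0.84), with Mx1 at 2.14 ± 0.12, Mx2 at 1.32 ± 0.10 and Gvin1 at 0.84 ± 0.12.

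Interferon transcripts themselves were scarce. Of 21 interferon ligand genes 18 had 0 counts in every library and none passed the filter for testing. Ifng, the main known inducer of IRG genes, had 2, 0, 5 and 0 counts in Mac 1 to 4 and 0, 2, 0 and 0 counts in the E-Mac libraries. Ifnb1 had 0, 2, 2 and 0 counts in Mac and 4, 14, 23 and 14 in E-Mac, so that every E-Mac library was above every Mac library. Ifnb1 was outside the filtered fit. With no filter its log2 fold change was 3.71 ± 0.77 (edgeR adjusted p = 2.21e-05). RNA counts of the sorted cells say nothing of interferon protein in the dish or of interferons made by the MSC.

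Among receptors and kinases 4 of 7 rose and 2 fell, beside 29.5% higher and 28.8% lower over all genes tested. Ifnar1, a chain of the type I receptor, rose (1.18 ± 0.08), as did Ifngr2 (0.76 ± 0.07) and Jak2 (0.75 ± 0.06). Ifngr1, the ligand-binding chain of the interferon gamma receptor, fell from 329 ± 7.44 to 217 ± 6.43 CPM (-0.60 ± 0.06), and so did Tyk2 (-0.58 ± 0.07). Jak1 had 0.10 and did not pass (edgeR adjusted p = 0.327). Of 11 transcription factors 7 rose and 2 fell (median 1.25). Irf7 rose most (2.59 ± 0.08), Stat2 had 1.46 ± 0.07 and Nlrc5, the activator of MHC class I genes, 1.43 ± 0.07. Irf1 rose from 109 ± 2.53 to 294 ± 26.4 CPM (1.43 ± 0.07). Ciita, the activator of MHC class II genes, fell from 24.9 ± 2.16 to 9.14 ± 1.79 CPM (-1.44 ± 0.14), and Irf3 fell as well (-0.40 ± 0.09). Of 8 genes listed here as feedback inhibitors 5 rose and 1, Pias1 (-0.23 ± 0.07), fell, a count that was 0 without Mac 2. The risers included Socs1 at 3.04 ± 0.12, Usp18 at 2.42 ± 0.07 and Isg15 at 3.63 ± 0.10. Isg15 counts as an inhibitor by this list alone, and no such role was examined here.

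All 20 type I interferon targets rose, beside 29.5% of all genes tested, with a median log2 fold change of 2.07. Among them were Rsad2 (3.57 ± 0.08), Ifit3 (3.55 ± 0.08) and Oasl1 (3.39 ± 0.08). Isg15, Usp18, Irf7, Mx1 and Mx2 of this list are also counted in lists above, so the lists are not separate. Of 16 tested targets listed here as driven mainly by interferon gamma 8 rose and 8 fell (median 0.15). Over all genes tested 29.5% were higher and 28.8% lower. Those that rose most were Acod1 (6.17 ± 0.27), Nos2 (4.48 ± 0.46) and Cxcl10 (4.21 ± 0.23). Among those that fell were Ciita, also counted with the transcription factors, and the class II genes H2-Aa, H2-Ab1, H2-Eb1 and Cd74. Cd274, which encodes PD-L1, rose (3.75 ± 0.10), as did Fcgr1 (2.52 ± 0.14) and the peptide transporter gene Tap1 (1.29 ± 0.06). Cxcl9, a chemokine gene that interferon gamma induces, fell from 3.34 ± 0.827 to 0.914 ± 0.149 CPM (-1.86 ± 0.28), and the class II gene H2-Aa fell (-1.99 ± 0.17). The difference between the lists was not tested, and such counts depend on which genes a list holds. A place in the interferon gamma list does not mean that no other signal induces the gene.

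IRG proteins are placed on and kept off membranes with the help of the autophagy conjugation machinery. Of 25 genes of this machinery and of the ubiquitin-binding partners on vacuoles, 8 rose, 8 fell and 9 did not pass (median 0.08), which is near the 29.5% higher and 28.8% lower of all genes tested. Without Mac 2 the count that fell was 5, and with scaling by library size alone the count that rose was 5. The risers included the adaptor Sqstm1 (1.41 ± 0.08), the ubiquitin ligase Trim21 (1.15 ± 0.07) and Gabarap (0.83 ± 0.07). Map1lc3b (-0.67 ± 0.13) and Atg14 (-0.73 ± 0.16) fell.

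**Figure D5:**
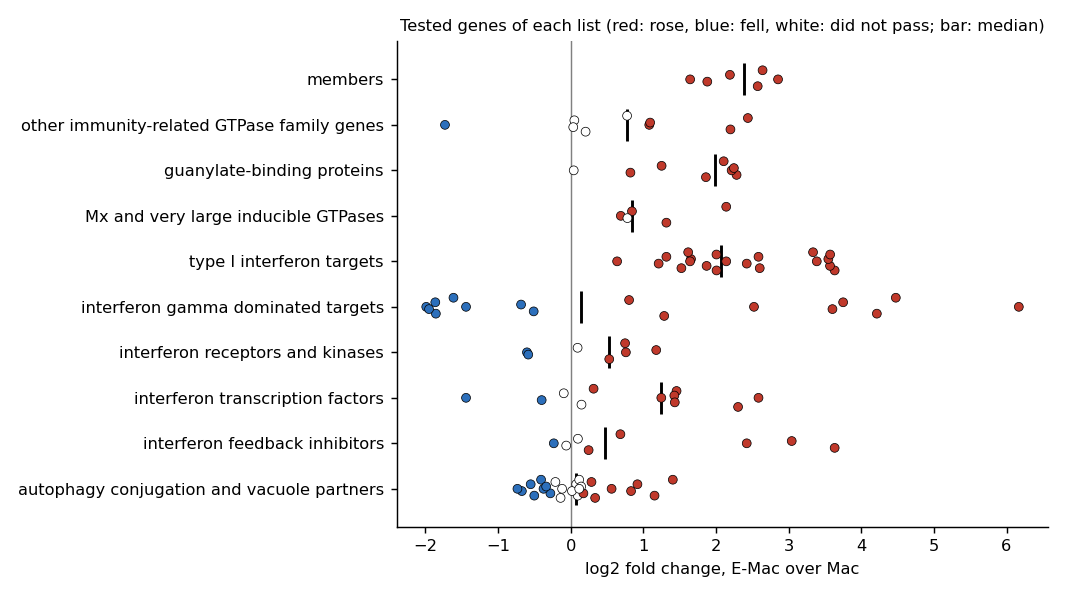
Log2 fold change, E-Mac over Mac, of every tested gene of 10 lists (red rose, blue fell, white did not pass), with the median of a list as a vertical bar. The 6 IRG genes, in the top row, lie from 1.64 to 2.85. The type I interferon targets all lie above 0, and the interferon gamma dominated targets lie on both sides. The interferon ligands, of which none was tested, are not drawn.

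By the root mean square difference of centred log2 CPM over the 8 libraries, the genes outside the 6 whose profile was closest to the mean IRG profile were Mgat4a (0.050), a glycosyltransferase gene, Gbp5 (0.080), Gm12250 (0.081), Zbp1 (0.091), a sensor of Z-form nucleic acids, and the spermine oxidase gene Smox (0.093). The 6 themselves lay at 0.077 (Igtp) to 0.352 (Iigp1) from their own mean. With 2 groups that far apart, any gene that rose by about as much comes close on this measure.

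Markers of other cells moved between the groups along with the IRG genes. The granulocyte sum fell from 35440 to 14110 CPM, and the T and NK cell sum was 21.3 to 32.2 CPM in Mac and 5.25 to 11.6 CPM in E-Mac, with Cd3e at 0 counts in every library. The erythroid sum was 48.3 to 65.6 CPM in Mac and 0.135 to 0.503 CPM in E-Mac. The stromal sum was higher in E-Mac, and so was the endothelial one, at 85.4 to 96.0 CPM in the Mac libraries and 190.4 to 258 CPM in the E-Mac libraries. Of the 5 tested endothelial genes 3 rose and 2 fell, beside 29.5% higher and 28.8% lower over all genes tested. Pecam1 went from 82.0 to 166.6 CPM and Kdr from 2.68 to 55.7 CPM, whereas Vwf fell from 4.09 to 2.12 CPM and Tie1 from 0.810 to 0.135 CPM. The granulocyte, T and NK cell, erythroid, stromal and endothelial sums each gave an exact two-sided permutation p of 0.0286 (0.0457 adjusted over 8 marker lists). That is the smallest p that 4 against 4 libraries allow. The macrophage, dendritic cell and B cell sums overlapped between the groups and did not pass, with exact permutation p of 0.0571, 0.0571 and 0.143. Without Lyz2, its highest gene, the macrophage sum was higher in E-Mac by 2925 CPM (exact permutation p = 0.0286). The part of these markers in the rise of the IRG genes was not tested. With E-Mac 2 and 4 left out, whose stromal sums were the highest, the 6 genes rose by 1.54 (Irgm2) to 3.03 (Iigp1) on the log2 scale.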

How the data were processed

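The authors deposited raw counts per gene symbol for 8 libraries. Per the submitters' processing notes, bcl2fastq, HISAT2, featureCounts, Subread, DESeq2 and the build mm10 were used; the sources used here do not give the annotation, the strand setting or the treatment of reads with several matches. Left out were 26 of 53673 names that read as dates (0.133 to 0.160% of each library). No counts fell on the 37 mitochondrial genes. The count 2 occurs more often than 1 (15311 and 8395 times), and whether mates were counted separately is not given.

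The test was the robust quasi-likelihood test of edgeR 4.0.16 (R 4.3.3) with TMM factors, which ran from 1.033 to 1.068 for Mac and from 0.931 to 0.970 for E-Mac. The filter was filterByExpr with a minimum count of 10 and a minimum total of 15, and p-values were adjusted by Benjamini-Hochberg over 13412 genes. The SE is the log2 fold change divided by the square root of F. Counting precision follows from the counts, from 8 in the lowest library of Tgtp1 to 6308 in the highest of Irgm1. Marker sums were compared by exact permutation. Libraries of a group all differed by more than sampling noise (lowest chi-square 4.85 per degree of freedom, in genes with at least 20 counts). Exon lengths and neighbours came from GENCODE M21 on mm10, and promoters from RefSeq on GRCm38.p6 (5 of 6 members matched). The fit was tested on simulated data.

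The 6 genes and all lists were chosen with earlier results of these data known. Named were all 6, every other family gene with 10 counts or more, the 3 genes with the smallest adjusted p of each other list, 6 genes whatever their values, and the 5 nearest profiles; not each is printed, and 1 gene is not reported here. A few others were named after their values were seen: Gbp8, Tyk2, Ifngr1, Jak1, H2-Aa, Irf3, Pias1, Map1lc3b, Atg14, Ifi47, endothelial genes and the neighbouring genes. So were Acod1, Nos2, Cxcl10, H2-Ab1, H2-Eb1, Cd74, Cxcr2, Mmp9, Cd3d and Cd3e. Alternatives were RLE, upper-quartile and no scaling factors, 2 other filters, DESeq2 1.42.0, limma-voom (limma 3.58.1), a replicate block, a fit that was not robust, a threshold of 0.01, each library left out, E-Mac 2 and 4 left out, Tgtp1 and Tgtp2 summed and, for levels, other lengths and, for the effector share, other effector genes. A comparison of the proteins was not made, as no protein sequences were used here.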

Additional observations from a re-analysis of the deposited data

Results flagged for a closer look

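Among 52 sets of 4 libraries (the CPM of a gene or the sum of a marker list in a group), 2 had a library that stood apart from the other 3 by Dixon's test at the 95% level. Chance gives this in about 1 in 20 sets. For Tgtp2 in Mac it was the highest library, Mac 2, at 10.8 CPM, beside 10.01 to 10.1 CPM in the other 3, a gap that is small against the 60.1 CPM of the lowest E-Mac library. For the sum of macrophage core markers in Mac it was the lowest library, Mac 1, at 14880 CPM, beside 15920 to 16070 CPM in the others.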

How the results depend on the processing

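All 6 IRG genes stayed higher and past the threshold under every alternative in which they were fitted (19 each, 17 for Tgtp1), with log2 fold changes of 2.05 to 2.24 for Igtp, 1.74 to 1.91 for Irgm1, 1.50 to 1.69 for Irgm2, 2.71 to 3.03 for Iigp1, 2.36 to 2.70 for Tgtp1 and 2.50 to 2.71 for Tgtp2, whose row stood for the sum of both Tgtp genes in 1 of them. The highest adjusted p was 4.12e-05, for Tgtp1 under the replicate block. Same-numbered Mac and E-Mac libraries did not deviate together (r = -0.043, 0.028, 0.015 and -0.106). So few pairs cannot decide whether the numbers pair the samples, and the labels do not say. With the replicate number as a block 7458 genes were called, 3768 of them higher, and the 6 genes kept 1.64 (Irgm2) to 2.84 (Iigp1). Leaving out 1 library gave 7233 to 7986 calls.

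Scaling by library size alone moved the median log2 fold change by -0.144 and left 37.4% of calls higher (2996 of 8014), against 50.6% with TMM, and upper-quartile factors moved it by -0.097 and left 41.8% higher. Under upper-quartile factors and library size alone Irgq had -0.062 and -0.11 and 9930111J21Rik2 -0.045 and -0.093. Irgq was also below 0 with the 10 CPM filter (-0.0020) and without E-Mac 1 (-0.0094, up to 0.095 with another library left out). Without E-Mac 2 and 4, 8496 genes were called, 9930111J21Rik1 had -0.043 and 9930111J21Rik2 -0.023. Without E-Mac 3, 9930111J21Rik1 passed at 0.39. The count of feedback inhibitors that fell was 2 with library size alone and without E-Mac 2 and 4, 0 with no filter, and 0 to 1 with a library left out (0 without Mac 2). Autophagy genes that rose numbered 5 with library size alone, and those that fell 5 to 8 with a library left out (5 without Mac 2). Of the interferon ligands 1, Ifnb1, was called higher with no filter, and 0 to 1 with a library left out. With the 10 CPM filter 0 other family genes fell, since fewer were tested. Otherwise the causes were not tested. Without the highest gene of each list the macrophage sum was higher in E-Mac by 2925 CPM (without Lyz2), the B cell sum higher by 9.36 CPM and the dendritic cell sum differed by -19.99 CPM, each with exact permutation p = 0.0286.

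Levels per kilobase moved with the length taken. With exon bases that no other gene shares Igtp was at 25.65 in Mac and 117.3 in E-Mac, and Irgm1 and Irgm2 overlapped in Mac. With the longest transcript Irgm1 was at 28.8 and 106.1, Iigp1 at 2.41 and 17.4, and Tgtp2 at 3.64 in Mac. The effector share did not overlap between the groups over the 6 genes or with Gm12250 added (26.4 to 27.7% and 30.8 to 34.6%), but did with Ifi47 added, an alternative chosen after seeing the data. Depth limits Tgtp1 most, with 8 to 19 counts in the Mac libraries.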
